A study of Rattus norvegicus with 24 samples.

Results

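Whole-cigarette smoke condensate (WCSC) was given to rats for 6 days at a high or a low concentration, and lung exposed to 20 mg/mL was compared with lung exposed to 5 mg/mL. The members are the 6 libraries with these labels, 3 at each concentration, out of 24 in the series. All 24 libraries are lung of wild-type rats (Rattus norvegicus, genotype WT). They form 8 groups of 3, with control, 5, 10 and 20 mg/mL of WCSC at 6 and at 12 days. The labels give the agent, the concentration and the number of days. They do not give the strain, sex or age of the rats, the route of dosing or what the controls received, nor do they say that replicates of a group are separate animals, so p-values measure the spread between libraries. Both groups compared carry the same agent, and the question is how expression differed between a high and a low concentration of it. The control libraries enter the filter for genes tested, the scaling and the shared estimate of spread, but not the difference itself. They are also given below as levels.

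Smoke condensate is collected from the smoke of burning cigarettes and holds polycyclic aromatic hydrocarbons, aldehydes and nicotine. In lung, aromatic hydrocarbons activate the aryl hydrocarbon receptor, which switches on cytochrome P450 genes, and reactive compounds release the factor NRF2, which switches on antioxidant genes. Alveolar macrophages take up inhaled particles and surfactant lipid, and under a heavy load they become lipid-laden and express genes of cholesterol export and lysosomal digestion. Glucocorticoid hormone, the daily clock and the stress of handling also set the level of a shared group of genes, among them Cebpd, Per2 and Nfkbia.

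The libraries were made from total RNA with a kit that counts the 3′ ends of polyadenylated transcripts, and each value is a raw read count per gene symbol. Library totals were 5499870, 9103834 and 7104973 reads at 20 mg/mL (replicates 1, 2 and 3) and 10989792, 9530244 and 5173550 reads at 5 mg/mL. CPM below are counts scaled to a common library size by TMM, a method that corrects library totals for composition. The correlation of log2 CPM between libraries was 0.919 to 0.948 across the concentrations, 0.923 to 0.941 within 20 mg/mL and 0.925 to 0.948 within 5 mg/mL. The 6 libraries did not separate by concentration on this measure. Expected genes detected at an equal depth of 4758014 reads were 11991, 11727 and 12476 at 20 mg/mL and 11590, 11454 and 12412 at 5 mg/mL (exact two-sided permutation test, p = 0.5; the smallest p that 3 against 3 allows is 0.1). Replicates 1 and 2 of 5 mg/mL and replicate 2 of 20 mg/mL are among the 8 libraries of the series with the fewest genes detected. Globin genes took 4.25, 6.66 and 1.12% of the counts at 20 mg/mL and 3.93, 6.01 and 4.51% at 5 mg/mL (exact two-sided permutation test, p = 0.8). Surfactant protein C (Sftpc), the defining product of alveolar type II cells, was at 11344, 14251 and 8706 CPM at 20 mg/mL and 12488, 10978 and 8546 CPM at 5 mg/mL, so every library carried the labelled tissue.

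Between the concentrations, 0 of 11421 genes tested (0%) passed an adjusted p of 0.05 (edgeR quasi-likelihood test, Benjamini-Hochberg over all genes tested). At an unadjusted p below 0.05 there were 817 genes (7.15%), of which 470 had a higher mean at 20 mg/mL (4.12%) and 347 a lower one (3.04%). The 3 libraries at 20 mg/mL all lay above the 3 at 5 mg/mL for 498 genes (4.36%) and all below for 457 (4%), together 955 genes (8.36%). Of all genes tested, 49.4% had a fitted log2 fold change above 0, and the median was -0.01. DESeq2 called 9 genes (0.0788%) while limma voom, run with weights for library quality, called 0. Of the 9, 8 are described below, and the ninth, Ckmt2, a mitochondrial creatine kinase of muscle, was at 1.42, 0 and 3.96 CPM at 20 mg/mL and at 0 in all libraries of 5 mg/mL. In simulated data of this design the altered genes all had a mean above 5 CPM, so genes of lower level are not covered. The edgeR test recovered 88.5% of genes altered 4-fold and 18% of genes altered 2-fold. A difference of 2-fold in a single gene was thus mostly not detectable with 3 libraries a group. The genes below are therefore described by their values: 12 higher and 12 lower at 20 mg/mL with the smallest unadjusted p among genes of at least 5 CPM whose libraries did not overlap.

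Cebpd had the smallest p of all. It encodes C/EBP delta, a transcription factor of the acute-phase and glucocorticoid response. Its level was 84.5, 59.9 and 84.1 CPM at 20 mg/mL and 313, 139 and 234 CPM at 5 mg/mL. Every library at 20 mg/mL was below every library at 5 mg/mL, and replicate 2 was the lowest in both groups. The fitted log2 fold change was -1.59 (SE 0.28, 95% interval -2.16 to -1.01), which is 3.00 times as much at 5 mg/mL as at 20 mg/mL. The adjusted p was 0.0956 with edgeR and 0.000244 with DESeq2. At 10 mg/mL Cebpd was at 109.5 ± 21.6 CPM and in the 6 day controls at 243 ± 41.8 CPM (SD, n = 3 each), so the level at 5 mg/mL was near that of the controls and the level at 20 mg/mL was the lowest of the 4 groups. Spidr, a DNA repair gene chosen after its values were seen because it lies next to Cebpd, was at 19.1, 29.4 and 25.6 CPM at 20 mg/mL and 60.8, 31.1 and 60.3 CPM at 5 mg/mL, a log2 fold change of -1.03 (SE 0.34).

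St3gal6, a sialyltransferase that helps build selectin ligands, was at 31.3, 27.6 and 27.7 CPM at 20 mg/mL against 66.0, 72.1 and 40.2 CPM at 5 mg/mL (log2 fold change -1.04, SE 0.20, edgeR adjusted p 0.0956, DESeq2 adjusted p 0.00163). The 3 libraries at 20 mg/mL lay close together, while replicate 3 of 5 mg/mL was well below the other two. Angpt2, the angiopoietin that opposes Tie2 signalling in endothelium, was at 21.3, 20.0 and 13.0 CPM at 20 mg/mL and 71.7, 26.6 and 45.2 CPM at 5 mg/mL. Gimap8, a GTPase of the immunity-associated family, was at 39.2, 27.8 and 22.1 CPM and 61.7, 68.8 and 47.0 CPM in the same order. The log2 fold change was -1.41 for Angpt2 (SE 0.32) and for Gimap8 -1.002 (SE 0.23), and neither pair of groups overlapped. Both had an edgeR adjusted p of 0.473, and DESeq2 gave 0.0381 and 0.0391. Angpt2 lies within Mcph1, and the counting is not stated to use strand, so reads of both genes may be mixed.

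Nrarp, a target and inhibitor of Notch signalling, was at 35.1, 21.7 and 23.7 CPM at 20 mg/mL and 49.8, 43.0 and 61.7 CPM at 5 mg/mL (log2 fold change -0.94, SE 0.24). Tbk1, a kinase that activates interferon regulatory factors, was at 39.4, 20.6 and 29.5 CPM against 48.2, 68.4 and 41.5 CPM (log2 fold change -0.83, SE 0.24). Pawr, which encodes the pro-apoptotic protein PAR-4, was at 44.7, 39.9 and 27.6 CPM against 90.9, 76.1 and 51.6 CPM (log2 fold change -0.97, SE 0.26). In each of them the highest library at 20 mg/mL remained below the lowest at 5 mg/mL. The spread within groups was narrow in Prpsap2, a partner of phosphoribosyl pyrophosphate synthetase, with 12.4, 9.78 and 11.5 CPM at 20 mg/mL and 20.5, 20.4 and 18.7 CPM at 5 mg/mL. Ttc5, Dph1, which acts in the synthesis of diphthamide on elongation factor 2, and Ube3d, a ubiquitin ligase, complete the 12 apart from Per2, with log2 fold changes of -1.19 (SE 0.34), -0.72 (SE 0.20) and -1.47 (SE 0.42). Dph1 and Ube3d overlap other genes on the chromosome, with the same limit as Angpt2. That limit also holds for St3gal6, Per2 and Pawr, which overlap non-coding genes or pseudogenes. Fut8 and Slc26a4, described below, do so too. All 8 genes from Nrarp on, Per2 included, had an edgeR adjusted p of 0.646.

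Among genes with a higher mean at 20 mg/mL the smallest p was that of Tmem176b, a membrane protein of myeloid and dendritic cells. Its values were 251.4, 276 and 322 CPM at 20 mg/mL and 122, 134 and 94.5 CPM at 5 mg/mL. The groups stood well apart, with a gap larger than the range within either group. The log2 fold change was 1.28 (SE 0.24, 95% interval 0.79 to 1.76), or 2.42-fold, with an adjusted p of 0.0956 in edgeR and 0.000721 in DESeq2. The 10 mg/mL group was at 143 ± 38.2 CPM and the control group at 161 ± 37.7 CPM (SD, n = 3 each), so the 20 mg/mL group was above all others. Tmem176b overlaps its relative Tmem176a, and reads of the pair cannot be told apart without strand.

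Ephx2, the soluble epoxide hydrolase that degrades epoxides of arachidonic acid, was at 14.6, 6.52 and 12.5 CPM at 20 mg/mL and 0.981, 0.131 and 2.85 CPM at 5 mg/mL (log2 fold change 3.14, SE 0.69; edgeR adjusted p 0.461, DESeq2 adjusted p 0.00172). The 5 mg/mL group was the low one here: the controls were at 4.72, 6.23 and 8.30 CPM. Tubb2b, a beta-tubulin, was at 47.7, 21.5 and 95.1 CPM at 20 mg/mL and 15.0, 13.6 and 17.3 CPM at 5 mg/mL, with most of the distance in replicates 1 and 3 (log2 fold change 1.84, SE 0.44; edgeR adjusted p 0.581, DESeq2 adjusted p 0.0373). Slc26a4, the anion exchanger pendrin of airway epithelium, was at 3.05, 2.29 and 28.8 CPM against 0.785, 0.131 and 1.42 CPM (log2 fold change 3.89, SE 1.03; edgeR adjusted p 0.646, DESeq2 adjusted p 0.0391). Replicate 3 alone carried the large value at 20 mg/mL.

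Retnla, a secreted resistin-like protein of type 2 inflammation and alternatively activated macrophages, was at 757, 342 and 2200.1 CPM at 20 mg/mL and 207, 195 and 23.1 CPM at 5 mg/mL. The groups did not overlap, yet each of them spread over several-fold, and the log2 fold change was 2.95 with an SE of 0.79. The controls were at 425, 450.2 and 642 CPM. Myo5a, a myosin that moves vesicles along actin, was at 39.2, 30.8 and 38.2 CPM at 20 mg/mL and 6.67, 22.6 and 13.7 CPM at 5 mg/mL (log2 fold change 1.33, SE 0.33). Fut8, which adds core fucose to N-glycans, was at 15.2, 12.7 and 14.2 CPM against 1.86, 2.87 and 7.65 CPM (log2 fold change 1.80, SE 0.46). For both, the 3 libraries at 20 mg/mL were similar and those at 5 mg/mL were scattered. Sept6 (a septin), Ephb3 (an ephrin receptor) and Fam46a had smaller differences, with log2 fold changes of 0.80 (SE 0.22), 0.75 (SE 0.21) and 0.73 (SE 0.21). From Myo5a to Fam46a, with Abca1, RT1-Db1 and Retnla included, the edgeR adjusted p was 0.646.

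**Figure D1:**
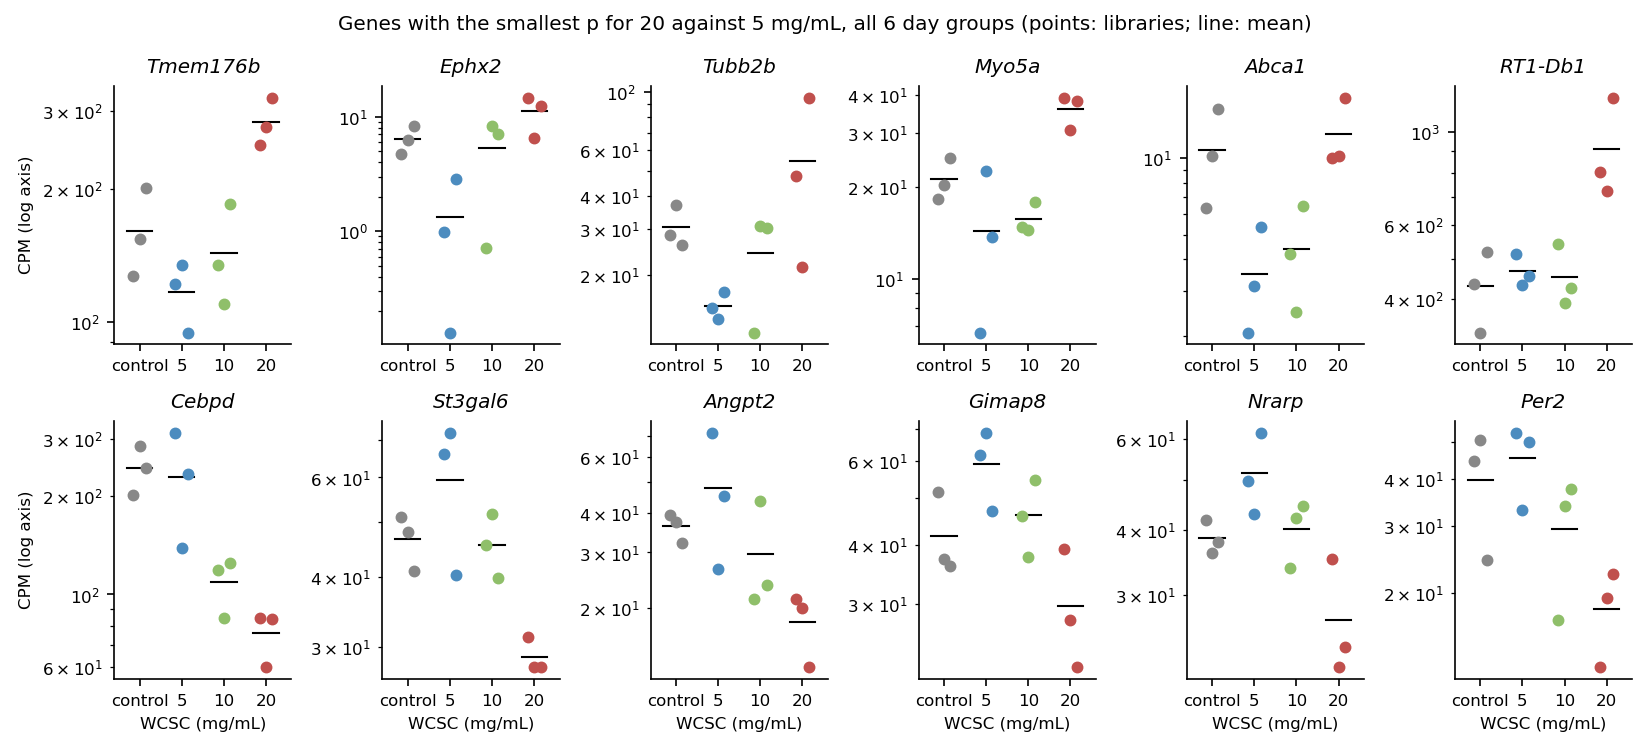
CPM on a log axis in the 4 groups of 6 days for 6 genes with a higher and 6 with a lower mean at 20 than at 5 mg/mL; points are libraries and lines are means of 3. In each panel the 3 libraries at 20 mg/mL lie wholly above (top row) or below (bottom row) those at 5 mg/mL, which is how the genes were chosen, and for Tmem176b, Myo5a and RT1-Db1 they also lie above all 10 mg/mL and control libraries.

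Glucocorticoid-induced genes were split between the concentrations. Of 21 tested, 8 had a higher and 13 a lower mean at 20 mg/mL, with 2 and 6 at an unadjusted p below 0.05 and a median log2 fold change of -0.11, which was -0.34 without replicate 3 of 20 mg/mL and -0.05 without replicate 3 of 5 mg/mL. At that p the shares of all genes were 4.12% higher and 3.04% lower. Besides Cebpd, Nfkbia, the inhibitor of NF-kappaB, was at 726, 979 and 701 CPM at 20 mg/mL and 2313, 823 and 1114 CPM at 5 mg/mL (log2 fold change -0.82, SE 0.28). Dusp1, the phosphatase that turns off stress kinases, was at 87.5, 88.5 and 133 CPM against 185, 114 and 316 CPM (log2 fold change -0.99, SE 0.41). Ddit4, an inhibitor of mTOR signalling, was at 34.3, 26.7 and 50.4 CPM against 111, 44.3 and 52.0 CPM (log2 fold change -0.90, SE 0.38). The groups overlapped in all 3 genes, and replicate 1 or 3 of 5 mg/mL had the highest value. Their edgeR adjusted p was 0.678, 0.69 and 0.69.

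Zbtb16, a transcription factor strongly induced by glucocorticoids, stood on the other side. It was at 65.2, 63.4 and 64.6 CPM at 20 mg/mL and 0.491, 3.00 and 49.3 CPM at 5 mg/mL. The libraries at 20 mg/mL were almost equal, and at 5 mg/mL replicate 3 was many times the other two. The log2 fold change was 1.91 (SE 0.87, edgeR adjusted p 0.69); without replicate 3 of 5 mg/mL it was 5.26 with an adjusted p of 0.0129, so that 1 library decides the call. The 6 day controls were at 0.893, 8.54 and 6.47 CPM and the 10 mg/mL libraries at 18.5, 27.7 and 53.3 CPM. Fkbp5, the co-chaperone that is a standard glucocorticoid readout, was at 77.6, 60.1 and 76.9 CPM at 20 mg/mL and 34.1, 47.0 and 97.9 CPM at 5 mg/mL. Replicate 3 of 5 mg/mL was again the highest of its group and above all of 20 mg/mL, and the log2 fold change of 0.27 (SE 0.38) turned negative in 2 of 17 alternatives. Genes induced by the same hormone thus had means on both sides in the same libraries.

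Core clock genes gave 6 higher and 8 lower means among 14 tested. At an unadjusted p below 0.05 there was 1 each way, against 4.12% higher and 3.04% lower of all genes. Per2, a repressor of the clock that also responds to glucocorticoids, was at 12.8, 19.4 and 22.5 CPM at 20 mg/mL and 52.8, 33.2 and 49.998 CPM at 5 mg/mL (log2 fold change -1.31, SE 0.35). Arntl, the activator BMAL1, was at 22.5, 12.1 and 23.9 CPM against 27.4, 25.5 and 34.0 CPM (log2 fold change -0.57, SE 0.32). Nfil3, a repressor of clock output, was at 17.7, 20.0 and 21.9 CPM against 12.2, 10.97 and 15.5 CPM (log2 fold change 0.63, SE 0.27). None of these 3 genes overlapped between groups. Of the 14 clock genes, 1 lay wholly above and 3 wholly below, against 4.36% and 4% of all genes. The hour of tissue collection is not in the labels, so concentration and time of day cannot be told apart. Of 21 immediate-early genes, which respond within minutes to stress and growth signals, 8 had a higher and 13 a lower mean. At an unadjusted p below 0.05 there were 0 and 3, against the same 4.12% and 3.04% of all genes. The leading one, Nr4a1, an orphan nuclear receptor, was at 5.69, 1.69 and 3.32 CPM at 20 mg/mL and 5.69, 5.09 and 21.4 CPM at 5 mg/mL. Its difference lay mostly in the high replicate 3 of 5 mg/mL.

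Genes of lipid-laden macrophages had mostly higher means at 20 mg/mL. Of 25 tested, 20 were higher and 5 lower, with 10 and 1 at an unadjusted p below 0.05 and a median log2 fold change of 0.42, against -0.01 over all genes. In 5 of them all libraries at 20 mg/mL were above those at 5 mg/mL, and in 1 all were below. Over all genes tested, 4.12% were higher and 3.04% lower at that p, and 4.36% and 4% lay wholly above and below. In whole tissue, more macrophages and more RNA of these genes per macrophage cannot be told apart. The summed level of the list was 6992, 8996 and 13627 CPM at 20 mg/mL and 7711, 6974 and 5866 CPM at 5 mg/mL. Replicate 3 of 20 mg/mL was highest, and without it the median log2 fold change was 0.33.

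Abca1, which exports cholesterol to apolipoproteins and is one of the 12 higher genes above, was at 9.95, 10.1 and 17.2 CPM at 20 mg/mL and 2.06, 3.13 and 5.34 CPM at 5 mg/mL (log2 fold change 1.85, SE 0.46). Its control libraries, at 6.38, 10.2 and 15.6 CPM, resembled those of 20 mg/mL. Trem2, a lipid-sensing receptor of macrophages, was at 9.54, 12.9 and 37.3 CPM at 20 mg/mL and 6.58, 7.31 and 7.65 CPM at 5 mg/mL (log2 fold change 1.48, SE 0.47). Gpnmb, a glycoprotein of lysosome-rich macrophages, was at 227, 349.7 and 741 CPM against 259, 213 and 78.8 CPM (log2 fold change 1.26, SE 0.43). For both, replicate 3 had the top value at 20 mg/mL, and in Gpnmb replicate 1 of 20 mg/mL lay within the 5 mg/mL range. The edgeR adjusted p was 0.646 for Trem2 and 0.661 for Gpnmb. Ctsl, a lysosomal cathepsin, ran the other way with 149, 79.3 and 80.9 CPM at 20 mg/mL and 216, 192 and 183 CPM at 5 mg/mL (log2 fold change -0.94, SE 0.34).

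Macrophage identity genes showed a smaller shift of means. Of 18 tested, 14 were higher at 20 mg/mL and 4 lower, with a median of 0.36 that was 0.20 without replicate 3 of 20 mg/mL. At an unadjusted p below 0.05 there were 2 and 0, against 4.12% and 3.04% of all genes. The summed level of the 18 was 33707, 37099 and 27212 CPM at 20 mg/mL and 37613, 46164 and 19029 CPM at 5 mg/mL, which did not follow the concentration. That sum was mostly Lyz2, a gene also on the alveolar type II list, and says little of the other members. Lyz2 took 3.31% and 2.90% of the counts in replicates 2 and 3 of 20 mg/mL. In replicates 1 and 3 of 5 mg/mL its share was 3.43% and 2.01%. Cd68, a lysosomal membrane protein, was at 39.8, 41.3 and 115 CPM against 49.6, 34.5 and 24.0 CPM (log2 fold change 0.86, SE 0.38). Cd36, the scavenger receptor for oxidised lipid, was at 8.73, 9.17 and 6.89 CPM against 2.06, 4.83 and 3.74 CPM (log2 fold change 1.23, SE 0.58), and its groups did not overlap. The difference of Siglec1, a surface lectin (log2 fold change 1.23, SE 0.59), was carried by replicate 3 of 20 mg/mL.

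Proteases and their inhibitors, the group that remodels lung matrix in smoke exposure, gave 16 higher and 5 lower means among 21 tested, with 6 and 1 at an unadjusted p below 0.05 and a median of 0.40 that was 0.24 without replicate 3 of 20 mg/mL. At that p were 4.12% and 3.04% of all genes. Mmp12, the macrophage elastase, was at 5.89, 1.21 and 31.4 CPM at 20 mg/mL and 2.06, 5.35 and 0.356 CPM at 5 mg/mL (log2 fold change 2.29, SE 1.05). Replicate 3 of 20 mg/mL was far above the rest, and replicate 2 was below 2 of the 3 libraries at 5 mg/mL. Adam19, a membrane-bound metalloprotease, was at 44.7, 53.7 and 59.8 CPM against 11.5, 21.0 and 47.5 CPM (log2 fold change 1.00, SE 0.43). Ctsb, cathepsin B, was at 476, 533 and 804 CPM against 520.5, 405 and 432 CPM (log2 fold change 0.42, SE 0.19). Both had 1 library that overlapped the other group.

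MHC class II and dendritic cell genes also had higher means at 20 mg/mL. These genes present antigen to helper T cells. Of 13 tested, 12 were higher and 1 lower, with 4 and 0 at an unadjusted p below 0.05, 3 with all libraries at 20 mg/mL above those at 5 mg/mL, and a median of 0.62. The shares of all genes were 4.12% and 3.04% at that p, with 4.36% wholly above. RT1-Db1, a class II beta chain, was at 802, 724 and 1204 CPM at 20 mg/mL and 513, 432 and 453 CPM at 5 mg/mL (log2 fold change 0.96, SE 0.25). The 10 mg/mL group was at 453 ± 77.6 CPM and the controls at 429.6 ± 92.9 CPM (SD, n = 3 each), near the level at 5 mg/mL. Cd74, the invariant chain that guides class II molecules to the endosome, was at 1192, 1410.2 and 1893 CPM against 1033, 636 and 987 CPM (log2 fold change 0.76, SE 0.25). RT1-Da, the class II alpha chain, was at 453, 341 and 644 CPM against 385, 259.8 and 302 CPM (log2 fold change 0.60, SE 0.23). Clec9a, a receptor of cross-presenting dendritic cells, had a log2 fold change of 0.99 (SE 0.34). The edgeR adjusted p was 0.646 for RT1-Db1 and Cd74, 0.678 for Clec9a and 0.69 for RT1-Da. Replicate 3 of 20 mg/mL was highest in all 4 genes, and without it the median of the list was 0.24. RT1 genes form a family of close copies, so reads may be split between members.

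The promoters of class II and of cell cycle genes are shown because the genes of each group are known to share promoter elements: the Y box, whose core is ATTGG on one strand and CCAAT on the other, and the cell cycle homology region (CHR), TTTGAA or TTCAAA. Each sequence is from RefSeq (build GRCr8, while the counts were made on rn6), runs 5′ to 3′ from 250 bases before the transcription start to 50 bases after, and has matches to either motif in capitals. Positions are the first base of a match, counted from the start.
RT1-Db1 (chr20:4560113-4560412, minus strand): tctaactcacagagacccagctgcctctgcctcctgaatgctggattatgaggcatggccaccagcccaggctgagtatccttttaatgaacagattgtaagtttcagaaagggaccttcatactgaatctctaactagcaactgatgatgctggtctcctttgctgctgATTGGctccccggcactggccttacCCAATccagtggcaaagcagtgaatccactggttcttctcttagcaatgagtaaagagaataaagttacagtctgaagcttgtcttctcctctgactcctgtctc
RT1-Da (chr20:4515165-4515464, plus strand): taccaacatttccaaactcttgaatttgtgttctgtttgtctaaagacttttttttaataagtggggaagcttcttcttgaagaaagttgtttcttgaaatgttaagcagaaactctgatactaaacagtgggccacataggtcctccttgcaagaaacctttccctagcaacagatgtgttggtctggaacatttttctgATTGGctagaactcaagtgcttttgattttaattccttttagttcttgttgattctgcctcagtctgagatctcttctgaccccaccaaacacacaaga
Ccnb1 (chr2:33655176-33655475, minus strand): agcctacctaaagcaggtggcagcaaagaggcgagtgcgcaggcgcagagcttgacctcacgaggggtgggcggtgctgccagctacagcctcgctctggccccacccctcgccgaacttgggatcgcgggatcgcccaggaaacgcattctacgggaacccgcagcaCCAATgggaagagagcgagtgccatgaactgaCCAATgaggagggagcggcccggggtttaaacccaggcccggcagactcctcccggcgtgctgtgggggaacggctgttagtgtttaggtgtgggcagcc
Top2a (chr10:84473044-84473343, minus strand): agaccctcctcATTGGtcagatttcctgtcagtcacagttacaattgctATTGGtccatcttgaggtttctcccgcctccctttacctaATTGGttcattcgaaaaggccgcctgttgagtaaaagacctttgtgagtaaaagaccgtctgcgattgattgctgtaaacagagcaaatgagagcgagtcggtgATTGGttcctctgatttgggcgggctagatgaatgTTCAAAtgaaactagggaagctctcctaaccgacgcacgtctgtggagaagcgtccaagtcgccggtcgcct
RT1-Db1 has the Y box core at -80 and -55 and RT1-Da at -49. Ccnb1 has it at -82 and -50, and Top2a at -239, -201, -161 and -57 with a CHR at -22. Searched on both strands, the Y box core is in 37.5% of 33469 promoters of this length, in 9 of the 11 tested class II and dendritic cell genes with a promoter entry and in 18 of 24 such cell cycle genes. The CHR is in 18.4% of all promoters, in 0 of 11 and in 12 of 24. A match is a string of letters and was not tested for binding or for a link with the levels.

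Cell cycle genes had the highest median among the lists with at least 12 tested members. Of 33 tested, 24 had a higher and 9 a lower mean at 20 mg/mL, with 10 and 0 at an unadjusted p below 0.05 and a median log2 fold change of 0.71. All libraries at 20 mg/mL were above those at 5 mg/mL for 5 genes and below for 1. Among all genes these shares were 4.36% and 4%, with 4.12% higher and 3.04% lower at that p. Tpx2, a spindle assembly factor, was at 12.8, 6.28 and 21.6 CPM at 20 mg/mL and 2.16, 3.52 and 7.65 CPM at 5 mg/mL (log2 fold change 1.63, SE 0.46). Top2a, the topoisomerase that untangles chromosomes in mitosis, was at 44.3, 17.5 and 52.7 CPM against 8.15, 17.5 and 17.97 CPM (log2 fold change 1.40, SE 0.44). Ccnb1, the mitotic cyclin B1, was at 19.1, 7.97 and 23.1 CPM against 6.67, 5.87 and 6.94 CPM (log2 fold change 1.36, SE 0.47). In all 3 genes, replicates 1 and 3 of 20 mg/mL were high and replicate 2 was close to the 5 mg/mL libraries. Mcm3, a subunit of the replicative helicase, was at 16.4, 14.7 and 26.9 CPM against 11.7, 10.8 and 9.79 CPM (log2 fold change 0.85, SE 0.27), and Birc5, survivin, had a log2 fold change of 1.28 (SE 0.42). The edgeR adjusted p was 0.646 for Tpx2, Top2a, Mcm3 and Birc5. Without replicate 3 of 20 mg/mL the median of the list was 0.34.

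Histone genes were not uniformly higher. Of 11 tested, 3 had a higher and 8 a lower mean at 20 mg/mL. At an unadjusted p below 0.05 there were 2 and 0, against 4.12% and 3.04% of all genes. The linker histone gene Hist1h1d was at 190.5, 162 and 137 CPM at 20 mg/mL and 65.4, 123 and 70.3 CPM at 5 mg/mL (log2 fold change 0.92, SE 0.29), and Hist1h1b at 4.47, 6.76 and 5.36 CPM against 0.0981, 1.83 and 1.96 CPM (log2 fold change 2.13, SE 0.76). Neither overlapped between groups. Most replication-dependent histone mRNAs carry no poly(A) tail and their genes are close copies, so this protocol counts them only in part.

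**Figure D2:**
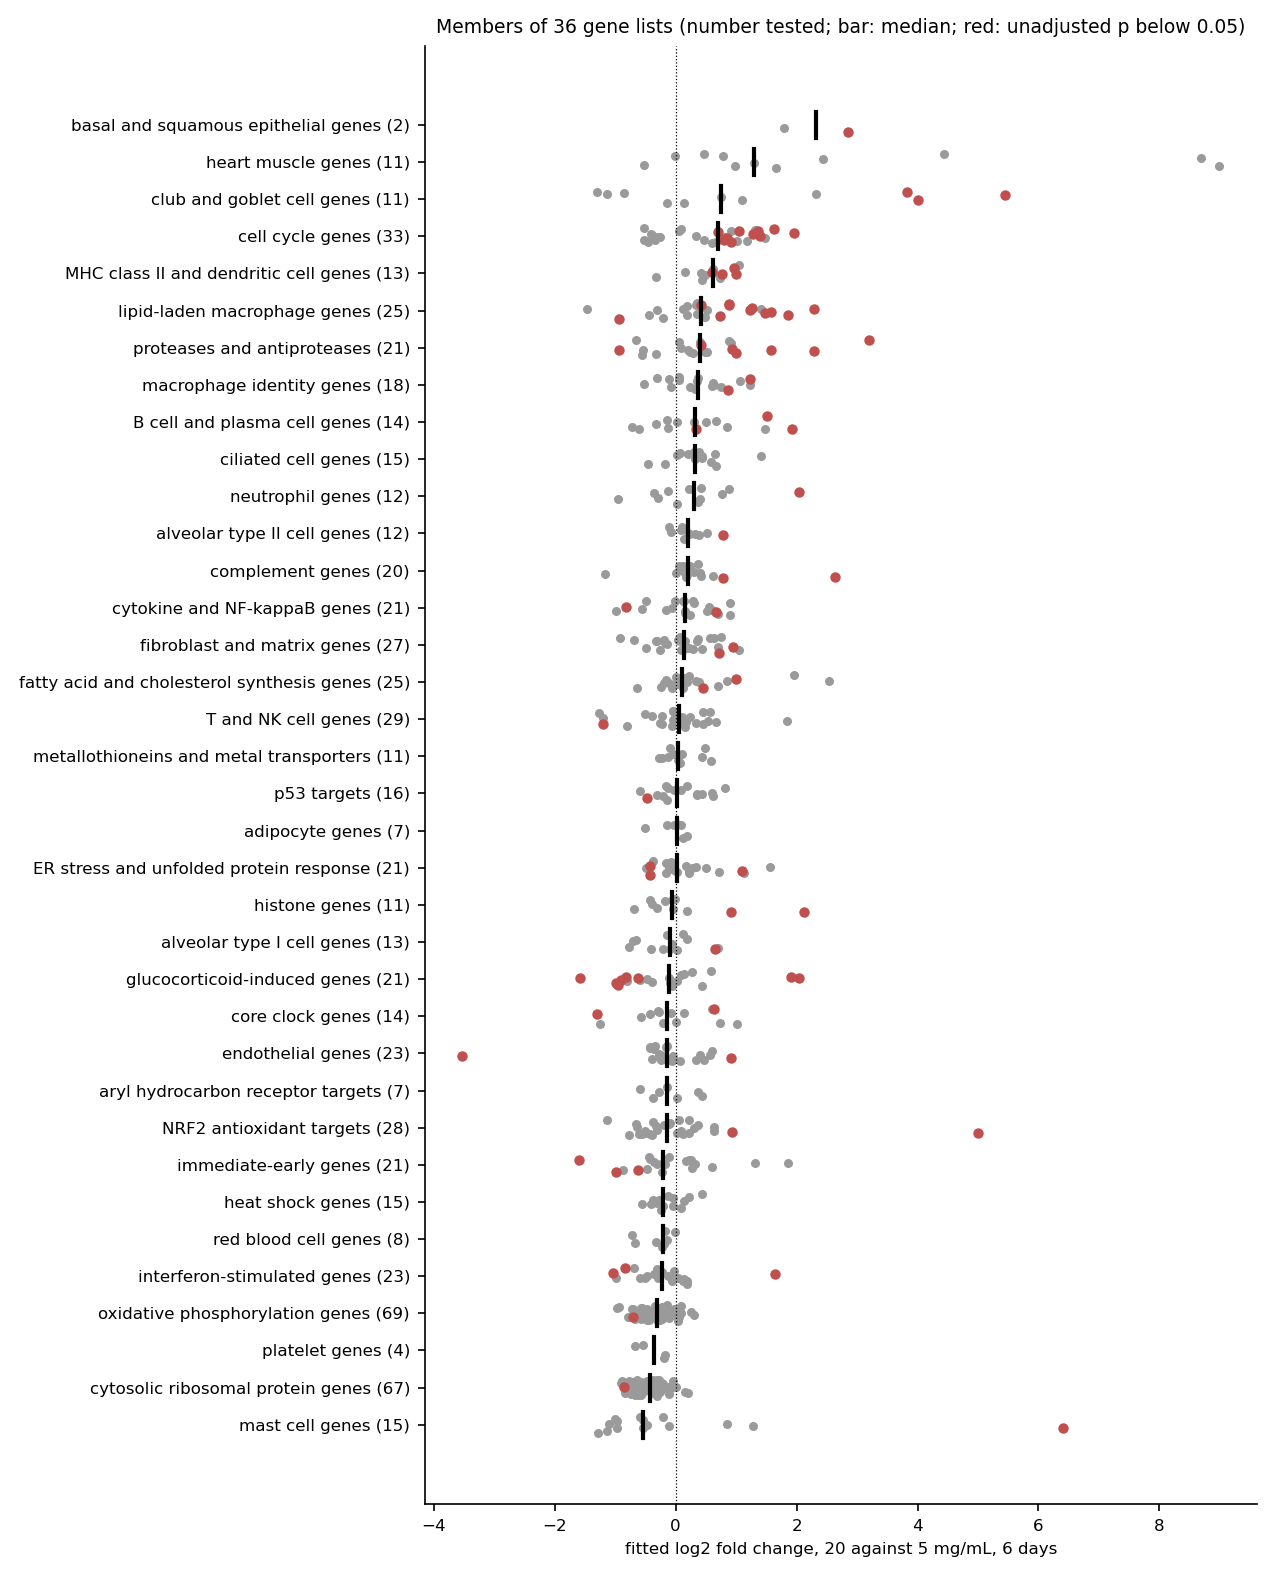
Fitted log2 fold change (x axis, 20 against 5 mg/mL at 6 days) of every tested member of all 36 gene lists, ordered by median, with the number tested in parentheses; red points have an unadjusted p below 0.05 and black bars are list medians. The medians run from -0.55 for mast cell genes to 2.31 for the 2 basal and squamous epithelial genes, with heart muscle genes at 1.29 and cell cycle genes at 0.71, and no point passes an adjusted p of 0.05 in edgeR.

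Genes that respond directly to smoke toxicants had no common direction between the concentrations. Of 7 aryl hydrocarbon receptor targets tested, 3 had a higher and 4 a lower mean at 20 mg/mL, and 0 had an unadjusted p below 0.05. Cyp1a1, the cytochrome P450 that oxidises aromatic hydrocarbons, was at 16.6, 8.93 and 5.87 CPM at 20 mg/mL and 19.9, 5.87 and 21.2 CPM at 5 mg/mL, against 13.0, 20.9 and 2.67 CPM in the controls. Its log2 fold change of -0.59 had a 95% interval of -2.11 to 0.93, which allows a difference of either sign. Of 28 NRF2 targets tested, 12 were higher and 16 lower. At an unadjusted p below 0.05 there were 2 and 0, against 4.12% and 3.04% of all genes. The median of the NRF2 targets was -0.15. That median was -0.27 without replicate 3 of 5 mg/mL and turned to 0.06 without replicate 1 of 5 mg/mL. Nqo1, a quinone reductase and a standard NRF2 readout, was at 36.8, 41.8 and 36.1 CPM against 45.0, 31.5 and 35.9 CPM (log2 fold change 0.03, 95% interval -0.42 to 0.48), a value whose sign turned in 3 alternatives. Hmox1, heme oxygenase 1, was at 47.3, 64.1 and 96.8 CPM against 46.7, 46.5 and 40.6 CPM (log2 fold change 0.64, SE 0.34); its groups just missed each other.

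Slc7a11, the cystine importer that feeds glutathione synthesis, had the smallest p of the NRF2 list. It was near the limit of detection, with 1.22, 0.362 and 3.96 CPM at 20 mg/mL and 0.0981, 0 and 0 CPM at 5 mg/mL, so its size cannot be read from the fit. Abcc1, an exporter of glutathione conjugates, was at 19.7, 17.0 and 28.2 CPM against 6.87, 5.87 and 21.9 CPM (log2 fold change 0.93, SE 0.39). Endoplasmic reticulum stress genes gave 11 higher and 10 lower means among 21 tested. At an unadjusted p below 0.05 there were 1 and 2, against 4.12% and 3.04% of all genes. The one higher, Trib3, a pseudokinase induced by the stress factor ATF4, was at 13.4, 15.2 and 19.8 CPM against 7.95, 4.83 and 9.96 CPM (log2 fold change 1.09, SE 0.42) without overlap. Heat shock genes gave 4 higher and 11 lower among 15, with 0 each way at an unadjusted p below 0.05. Among 16 p53 targets 8 means were higher and 8 lower, with 0 and 1 at that level, and 11 genes of metal handling gave 6 and 5 with 0 each way.

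Among all genes tested, 7.15% had an unadjusted p below 0.05, and the cytokine and neutrophil lists were near that share. Of 21 cytokine and NF-kappaB genes, 14 had a higher and 7 a lower mean at 20 mg/mL, with 1 at that level each way: Nfkb2, an NF-kappaB subunit, at 24.97, 38.9 and 52.3 CPM against 16.8, 28.9 and 28.1 CPM (log2 fold change 0.66, SE 0.27), and Nfkbia, given above. Il1b, the cytokine interleukin 1 beta, was at 57.3, 63.6 and 55.3 CPM at 20 mg/mL and 69.3, 63.8 and 27.6 CPM at 5 mg/mL. The groups lay on top of each other apart from the low replicate 3 of 5 mg/mL. Of 12 neutrophil genes 8 were higher and 4 lower, with 1 and 0 at that level. That gene was Lcn2, the siderophore-binding lipocalin of neutrophils and stressed epithelium, at 50.2, 79.3 and 177 CPM against 23.0, 17.1 and 34.5 CPM (log2 fold change 2.05, SE 0.94); its groups did not overlap, and the controls were at 39.4, 41.7 and 97.0 CPM.

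Complement genes leaned to 20 mg/mL, with 19 of 20 means higher, 2 and 0 at an unadjusted p below 0.05 and a median of 0.20. With 1 library left out that median was between 0.10 (without replicate 3 of 5 mg/mL) and 0.40 (without replicate 1 of 20 mg/mL). All genes tested gave 4.12% higher and 3.04% lower at that p. C2, which joins the classical convertase, was at 93.4, 164 and 185 CPM against 88.3, 95.3 and 72.2 CPM (log2 fold change 0.79, SE 0.28), and Cfi, the protease that inactivates C3b, at 5.28, 2.90 and 7.02 CPM against 0.491, 1.04 and 0.890 CPM (log2 fold change 2.64, SE 0.95). Interferon-stimulated genes leaned to 5 mg/mL, with 6 higher and 17 lower means among 23, 1 and 2 at an unadjusted p below 0.05, and a median of -0.23 that was 0.03 without replicate 1 of 5 mg/mL. Ifi44, an interferon-induced protein, was at 31.9, 20.4 and 31.3 CPM against 63.4, 48.4 and 36.3 CPM (log2 fold change -0.83, SE 0.27). Cxcl9, the chemokine induced by interferon gamma, was at 16.4, 1.69 and 42.1 CPM against 8.05, 7.96 and 3.02 CPM, and its replicates at 20 mg/mL spanned both ends of the range.

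T and NK cell genes showed no common direction. Of 29 tested, 15 had a higher and 14 a lower mean at 20 mg/mL, with 0 and 1 at an unadjusted p below 0.05. Their median of 0.05 was -0.23 to 0.20 with 1 library left out. Of 14 B and plasma cell genes 9 were higher and 5 lower. At that p there were 3 and 0, against 4.12% and 3.04% of all genes. The B and plasma cell median was 0.32, and 0.20 to 0.38 with 1 library left out. Mzb1, a chaperone of antibody-secreting cells, was at 11.6, 9.78 and 40.3 CPM at 20 mg/mL and 6.18, 4.18 and 5.87 CPM at 5 mg/mL (log2 fold change 1.93, SE 0.73). Replicate 3 of 20 mg/mL stood above the others, and the other two were also above all of 5 mg/mL. Mast cell genes gave 3 higher and 12 lower means among 15, with 1 and 0 at that level and a median of -0.55 that was -0.95 to -0.30 with 1 library left out and 0.01 with the number of genes detected as a covariate. Red blood cell genes gave 0 higher and 8 lower means with 0 at that level, and their median of -0.21 turned to 0.24 without replicate 3 of 20 mg/mL. Platelet genes gave 0 and 4 with 0 at that level, and their median of -0.36 turned to 0.11 without replicate 2 of 5 mg/mL.

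Among structural cells, alveolar type II genes gave 10 higher and 2 lower means of 12 tested. Their median of 0.21 was 0.08 without replicate 3 of 5 mg/mL and 0.09 without replicate 3 of 20 mg/mL. At an unadjusted p below 0.05 there were 1 and 0, against 4.12% and 3.04% of all genes. Lpcat1, which makes the main surfactant phospholipid, was at 161, 217 and 364 CPM at 20 mg/mL and 105, 123 and 204 CPM at 5 mg/mL (log2 fold change 0.78, SE 0.33). Cldn18, the tight junction protein of alveolar epithelium, was at 518, 696 and 493 CPM against 269, 351 and 467 CPM (log2 fold change 0.65, SE 0.26). Its groups did not overlap, although replicate 3 of 5 mg/mL came close. It was the one gene at an unadjusted p below 0.05 among 13 of alveolar type I cells, of which 5 were higher and 8 lower, with a median of -0.10 that turned to 0.11 without replicate 3 of 20 mg/mL. Scd1, the desaturase that makes oleate for surfactant and membrane lipid, was at 228, 192 and 177 CPM against 60.9, 156 and 83.4 CPM (log2 fold change 0.99, SE 0.38). It led the 25 genes of fatty acid and cholesterol synthesis, of which 17 were higher and 8 lower, with 2 and 0 at that level and a median of 0.11 that turned to -0.05 without replicate 3 of 20 mg/mL.

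Endothelial genes gave 7 higher and 16 lower means among 23, with a median of -0.15 that turned to 0.01 without replicate 3 of 20 mg/mL. At an unadjusted p below 0.05 there was 1 each way, against 4.12% higher and 3.04% lower of all genes. The lower one, Sox18, a transcription factor of endothelium, had 1, 1 and 1 reads at 20 mg/mL and 9, 16 and 15 reads at 5 mg/mL. Its groups did not overlap. Summed over the libraries and divided by their total reads, its level at 20 mg/mL was 0.0888 of that at 5 mg/mL (exact 95% interval for counting error only 0.0176 to 0.279). The higher one, Cdh5, the cadherin of endothelial junctions, was at 160.0, 133 and 61.1 CPM at 20 mg/mL and 33.5, 67.0 and 88.1 CPM at 5 mg/mL (log2 fold change 0.91, SE 0.43), with replicate 3 of 20 mg/mL inside the 5 mg/mL range. Of 27 fibroblast and matrix genes 18 were higher and 9 lower, with 2 and 0 at that level. Loxl2, a collagen crosslinking enzyme, was at 59.3, 60.0 and 54.4 CPM against 12.8, 26.6 and 51.1 CPM (log2 fold change 0.95, SE 0.32). Fbn1, the microfibril protein fibrillin 1, was at 227, 194 and 170.3 CPM against 48.0, 142 and 171 CPM (log2 fold change 0.72, SE 0.30). In both, replicate 1 of 5 mg/mL was the low library and replicate 3 lay near or inside the 20 mg/mL range. The receptor Epha4 had a log2 fold change of -0.37 (SE 0.21), with 25.8, 27.2 and 24.8 CPM against 31.3, 31.9 and 37.7 CPM.

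Airway and heart genes varied with single libraries. Of 15 ciliated cell genes, 13 had a higher mean at 20 mg/mL, yet their summed level was 696, 419.6 and 848 CPM at 20 mg/mL and 487, 591 and 612 CPM at 5 mg/mL, and the list's median of 0.32 was -0.49 without replicate 3 of 20 mg/mL. Of 11 club and goblet cell genes 7 were higher and 4 lower. At an unadjusted p below 0.05 there were 3 and 0, against 4.12% and 3.04% of all genes. The summed level of this list was 13005, 3442 and 9024 CPM at 20 mg/mL and 18756, 14868 and 11575 CPM at 5 mg/mL. Its median of 0.75 was -0.02 without replicate 3 of 20 mg/mL. Bpifa1, a secreted protein of airway surface cells, was at 149, 0.121 and 466 CPM against 6.08, 5.61 and 1.96 CPM. Scgb1a1, the club cell secretoglobin, was at 11231, 3104 and 7069.6 CPM against 16579.5, 11229.7 and 10850.0 CPM, with replicate 2 of 20 mg/mL the lowest. Krt15, a keratin of basal cells, was at 15.6, 4.83 and 29.1 CPM against 4.12, 0.783 and 1.78 CPM (log2 fold change 2.84, SE 0.92). It was the one gene of these groups whose libraries did not overlap. Myh6, the atrial myosin, was at 0, 0 and 26.5 CPM at 20 mg/mL and at 0 in all libraries of 5 mg/mL. Of 11 heart muscle genes 9 had a higher mean at 20 mg/mL, with 0 at an unadjusted p below 0.05, and the list's median of 1.29 was -0.51 without replicate 3. Their summed level was 219, 212 and 383 CPM at 20 mg/mL and 441, 277 and 212 CPM at 5 mg/mL, so the sum did not mark that replicate. The median member did, as log2(CPM + 0.5) minus the mean of the 6 libraries. It was 2.02 in replicate 3 of 20 mg/mL and -0.90 to -0.08 in the other libraries. Like Myh6, Myl7 (0, 0 and 21.4 CPM) and Myl4 (0, 0.121 and 8.42 CPM) peaked in that replicate at 20 mg/mL. Of 7 adipocyte genes 4 were higher and 3 lower, with 0 at that level. Replicate 3 of 20 mg/mL was also the highest for class II, cell cycle and lipid-laden macrophage genes, and the part of tissue carried along with the lung in those differences was not tested.

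Ribosomal protein genes separated the 5 mg/mL libraries from each other more than the concentrations. Of 67 tested, 2 had a higher and 65 a lower mean at 20 mg/mL, with a median of -0.43. At an unadjusted p below 0.05 there were 0 and 1, against 4.12% and 3.04% of all genes. The summed level of the 67 was 53157, 45029 and 41321 CPM at 20 mg/mL and 80695, 85088 and 27489 CPM at 5 mg/mL. Replicates 1 and 2 of 5 mg/mL were above and replicate 3 was below every library of 20 mg/mL. Without replicate 3 of 5 mg/mL the median was -0.78, and without the 8 libraries with the fewest genes detected, which leaves replicate 3 of 5 mg/mL against replicates 1 and 3 of 20 mg/mL, it was 0.78. Rpl38, a protein of the large subunit, was at 197, 182 and 126 CPM against 476, 322 and 116 CPM. Genes of oxidative phosphorylation followed the same pattern of libraries, with 8 higher and 61 lower means among 69, 0 and 1 at an unadjusted p below 0.05, and a median of -0.31 that became 0.30 without the 8 libraries. In that comparison of 1 library against 2, the median also changed sign for NRF2 targets (0.17), interferon-stimulated genes (0.17), mast cell genes (1.71) and platelet genes (0.47). It was -0.32 for glucocorticoid-induced genes, -0.47 for red blood cell genes and -0.47 for endothelial genes, and 0.88 for lipid-laden macrophage, 0.78 for macrophage identity, 0.64 for complement and 0.48 for alveolar type II genes. The libraries with high ribosomal protein levels at 5 mg/mL were those with few genes detected. With the number of genes detected as a covariate, the median was -0.03 for ribosomal protein and -0.10 for oxidative phosphorylation genes. In that fit it was 0.08 for interferon-stimulated, -0.24 for ciliated cell, -0.10 for club and goblet cell and 0.09 for heart muscle genes. It was 0.65 for lipid-laden macrophage, 0.52 for class II and dendritic cell and 0.55 for cell cycle genes. The part of library quality in these differences was not tested.

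**Figure D3:**
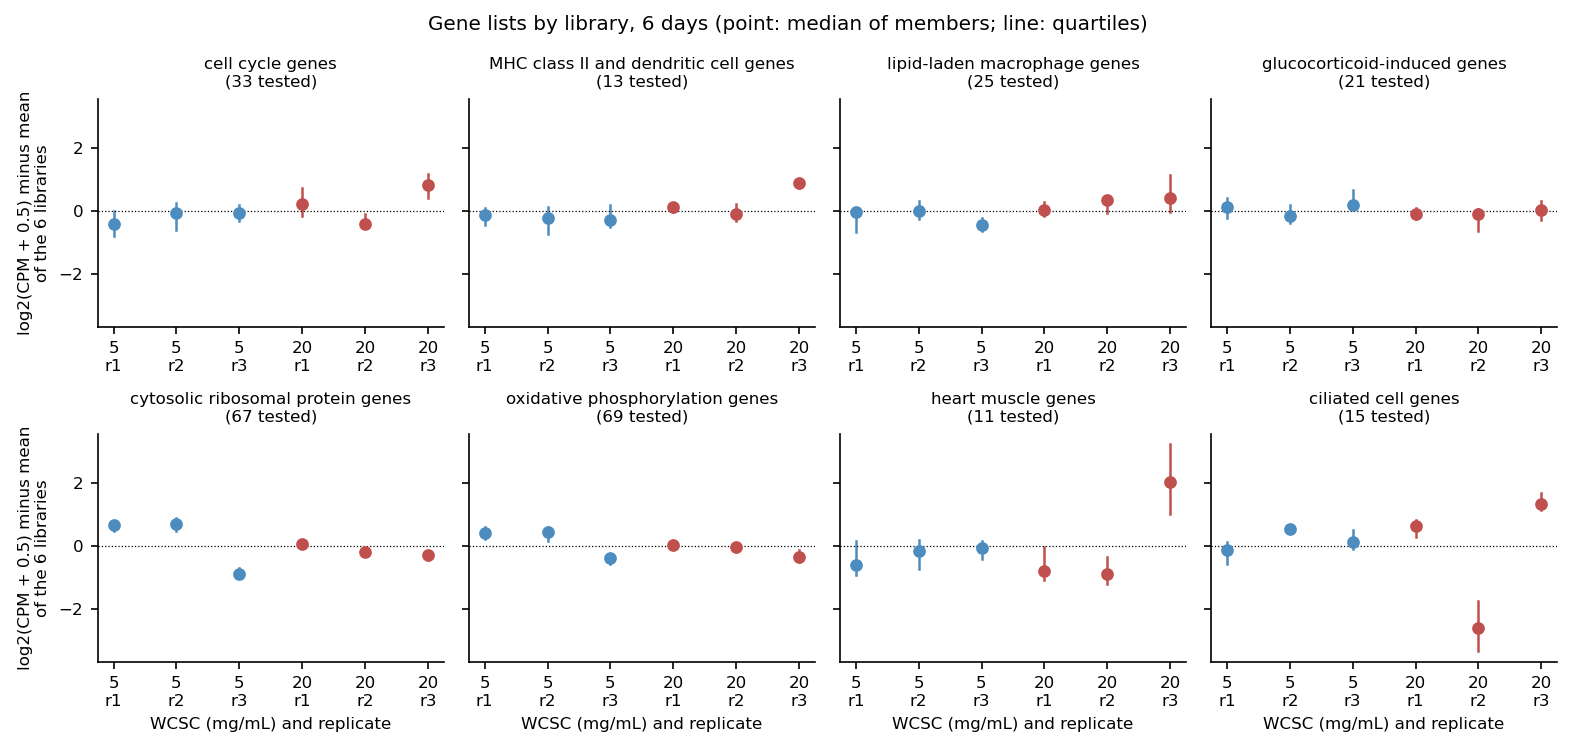
Median over the tested members of 8 gene lists in each of the 6 libraries, as log2(CPM + 0.5) minus the mean of the 6 libraries (y axis), with lines for the quartiles of the members; 5 mg/mL in blue and 20 mg/mL in red. Cell cycle, class II and heart genes peak in replicate 3 of 20 mg/mL (0.84, 0.89 and 2.02), ciliated cell genes dip to -2.62 in replicate 2 of 20 mg/mL, and ribosomal protein genes split the 5 mg/mL libraries (0.65, 0.70 and -0.88).

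The same 2 concentrations were compared at 12 days, in 6 other libraries. The difference between the days was tested for every gene in the same fit: 0 of 11421 genes passed an adjusted p of 0.05 (edgeR), 923 had an unadjusted p below 0.05 (8.08%; 450 with a log2 fold change higher at 12 days, 3.94%, and 473 with one lower, 4.14%), DESeq2 called 1 gene, Slc26a4, and limma voom called 0. Of the 24 genes chosen above at 6 days by p, level and lack of overlap, 5 had the same sign at 12 days (20.8%). This compares with 29.0% of the 817 genes at an unadjusted p below 0.05 and 39.7% of all genes tested. The median size of the log2 fold change of the 24 was 1.23 at 6 days and 0.22 at 12 days; at 6 days they were chosen for their p, which raises that value. Cebpd kept its side, with 142, 106 and 135 CPM at 20 mg/mL and 188, 163 and 255 CPM at 5 mg/mL after 12 days (log2 fold change -0.66, SE 0.27). Tmem176b was at 176, 176 and 129 CPM against 181, 221 and 173 CPM (log2 fold change -0.26, SE 0.23). Its groups overlapped at 12 days, and the difference between days of -1.53 (SE 0.33) had the smallest unadjusted p of the genes named for it, with an adjusted p of 0.592 in edgeR.

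Slc26a4 was at 1.78, 2.30 and 0.366 CPM at 20 mg/mL and 1.91, 12.1 and 7.72 CPM at 5 mg/mL after 12 days, the reverse order of 6 days (difference between days -6.21, SE 1.41). Myo5a likewise had a log2 fold change of -0.68 (SE 0.32) at 12 days. On the other side, Klf10, an early response gene of TGF-beta, went from a log2 fold change of -0.62 (SE 0.27) at 6 days to 0.91 (SE 0.27) at 12 days. Zbtb16 was higher at 20 mg/mL at both times, with 96.0, 34.1 and 69.1 CPM against 1.91, 2.56 and 8.16 CPM after 12 days (log2 fold change 3.98, SE 0.97). The medians of the leading lists at 12 days were -0.02 for lipid-laden macrophage genes, 0.06 for class II and dendritic cell genes and 0.01 for cell cycle genes. None of these differences between days passed the adjusted threshold in edgeR, so a dependence on the length of exposure was not detected by that test.

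**Figure D4:**
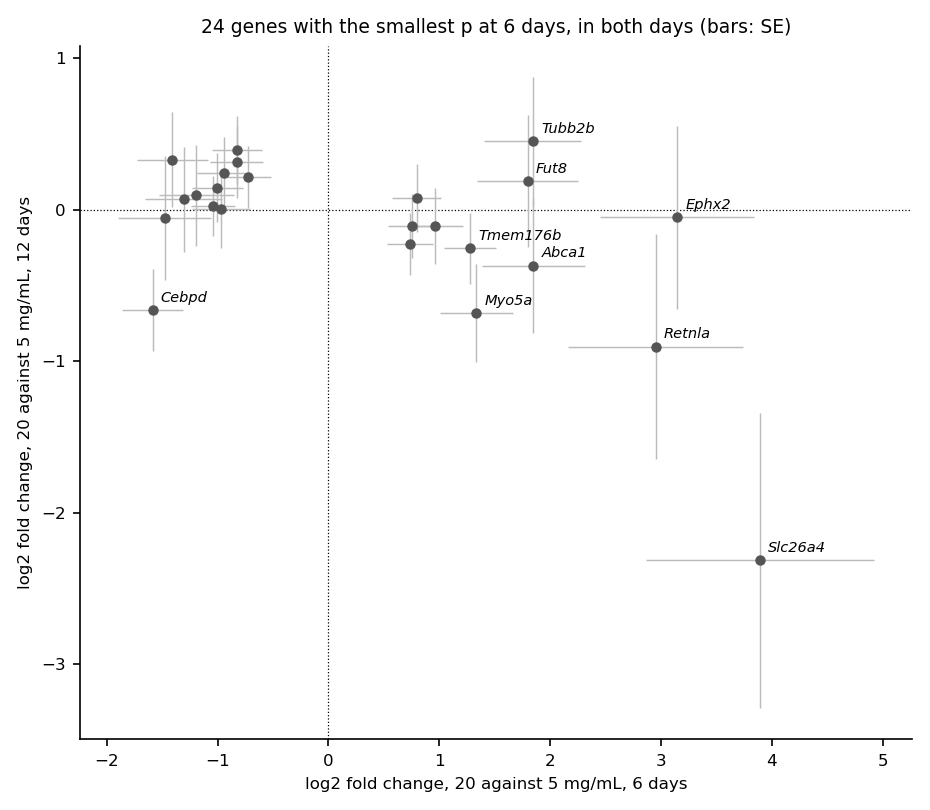
Fitted log2 fold change of 20 against 5 mg/mL at 6 days (x axis) and at 12 days (y axis) for 24 genes. These had the smallest p at 6 days, 12 each way, among genes of at least 5 CPM whose libraries did not overlap. Bars are SE. Most genes lie near 0 at 12 days, 5 of 24 keep their sign, Cebpd is lower at 20 mg/mL on both days, and Slc26a4 and Retnla are higher at 20 mg/mL at 6 days and lower at 12 days.

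The other 6 day groups give the place of these levels on the dose scale. For the 24 genes, the mean at 10 mg/mL lay between those of 5 and 20 mg/mL in 22 and the control mean in 21. The counts were 649 and 664 of the 817 genes at an unadjusted p below 0.05 and 4517 and 4303 of all 11421, and a wide gap between 5 and 20 mg/mL, for which the genes were chosen, leaves more room for the other groups. On the scale of log2(CPM + 0.5) the control mean was nearer to 5 mg/mL in 15 of the 24 and nearer to 20 mg/mL in the others. Of the 12 lower genes it was nearer to 5 mg/mL in 10, and of the 12 higher genes in 5. On that scale the controls were nearer to 20 than to 5 mg/mL in Ephx2, Abca1, Retnla, Ephb3, Fut8, Fam46a and Tubb2b. Among the lower genes, that was so in Gimap8 and Ttc5.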

How the data were processed

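The files deposited by the authors hold raw counts for each gene symbol in 1 library; all values are whole and their sums differ between libraries. Trizol extraction of total RNA and a Lexogen QuantSeq kit are named, per the labels' protocols. Per the submitters' processing notes, Bowtie2, bedtools and the rat build rn6 were used. In the sources used here, versions, annotation and strand setting are not given. Because 3′ end counts depend on where transcripts end, counts were not compared between genes.

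Each file held 17048 lines and 16881 symbols. For 149 repeated symbols the line with the highest total was kept, which left out 0.772% of the counts. Library totals in the series ran from 4758014 to 10989792 reads. After filterByExpr, 11421 genes were fitted with edgeR 4.0.16 in R 4.3.3 (TMM factors 0.804 to 1.12, quasi-likelihood test, 8 group means over all 24 libraries, 16 residual degrees of freedom, common biological coefficient of variation 0.335). Tests were two-sided with Benjamini-Hochberg adjustment over all genes tested and a threshold of 0.05. SE is the log2 fold change divided by the square root of its F value, and intervals are 95%. Genes detected at equal depth were computed for 4758014 reads drawn from each library. The method was tested on simulated data with 200 altered genes.

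DESeq2 1.42.0, limma 3.58.1 and the other settings below were alternatives. Genes were named by a rule: all called genes, or else the 12 each way with the smallest unadjusted p, a mean of at least 5 CPM and no overlap between libraries, up to 4 members of each of 36 gene lists by p, 3 genes each way for the difference between days, and 18 genes whatever their p. Of the genes the rule allows, those that carry each list are printed. Spidr and Ccnb1 were printed outside the rule, as were Ckmt2 and Tcf20, which were called only in alternative settings. The members and lists were chosen with earlier results of these data known. Promoters are those of RefSeq, matched by symbol.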

Additional observations from a re-analysis of the deposited data

How the results depend on the processing

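For 20 against 5 mg/mL at 6 days, edgeR called 0 genes with other scaling (RLE or upper quartile), no filter, only the compared groups, no globin and ribosomal RNA genes, no repeated symbols, or without the 8 libraries with the fewest genes detected, and limma voom called 0. DESeq2 called 9 genes and the number of genes detected as a covariate gave 1 (Cebpd). Leaving out 1 library gave 0 to 3 calls: Cebpd without replicate 2 of 5 mg/mL, and St3gal6, Zbtb16 and Tcf20 without replicate 3 of 5 mg/mL. Genes at an unadjusted p below 0.05 numbered 817, 356 with only the compared groups, and 435 (without replicate 1 of 5 mg/mL) to 1877 (without replicate 3 of 5 mg/mL) with 1 library left out. For the difference between days, DESeq2 called 1 gene and the other settings 0, and genes at an unadjusted p below 0.05 numbered 923, with 564 to 1794 when 1 library was left out. In the fit with the replicate number as a replicate block, 0 genes were called and 1132 had an unadjusted p below 0.05. The deviations of libraries with the same number from their group means had r = -0.02, -0.03 and 0.22. For libraries with different numbers r was -0.20 to 0.25. With 3 libraries a group these values cannot decide whether the numbers pair the libraries. Of 81 genes named above and refitted in each setting, 5 turned sign in some setting. The 81 do not include every gene named above. Myl4 is not among them, and its log2 fold change ran from -2.57 to 3.77 over the alternatives. The log2 fold change of Fkbp5 was -0.33 without the 8 libraries and -0.016 to 0.82 with 1 library left out, and that of Rpl38 was 0.48 without the 8 libraries. With 1 library left out, the range was -0.086 to 0.18 for Nqo1, -0.18 to 0.36 for Il1b (1.04 without the 8 libraries) and -0.090 to 0.26 for Sftpc. The cause was not tested.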
